A study of Mus musculus with 15 samples.

Results

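Kidney transcripts of mice that received folic acid and then the leptin-neutralizing antibody LepAb (group LepK) were compared with those of mice that received folic acid and then control IgG (group IgGK). The comparison used the count columns of these 2 groups, 3 libraries each, which are 6 of the 15 libraries in the series, and it covered every gene of the table. The mice were male C57Bl/6 animals of 10 to 12 weeks, labelled wild type. Acute kidney injury and later fibrosis were induced in both groups by a single intraperitoneal injection of folic acid at 200 mg/kg in bicarbonate buffer. Antibody or IgG was given intraperitoneally at 10 mg/kg every other day for 21 days from day 1, and kidneys were collected on day 28. LepAb is hLep3, a human monoclonal antibody that neutralizes leptin, so both injured groups had received folic acid and an immunoglobulin. The 3 kidney libraries of the vehicle group (WTK), which had no folic acid, were part of the same fit and are given beside the values as the level without injury. The sample titles of this group name vehicle treatment only and give neither antibody nor IgG. RNA came from whole kidney, 1 library was taken as 1 mouse, and the labels put all libraries in 1 batch.

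Leptin is a hormone made mainly by fat cells. It binds the leptin receptor LEPR, whose long form activates the kinase JAK2 and the transcription factor STAT3, and STAT3 induces the inhibitor SOCS3, which shuts the signal down. Folic acid at a high dose damages the tubules of the kidney, above all the proximal tubule, a segment that reabsorbs glucose, phosphate, amino acids and salts and depends on its mitochondria for energy. Where repair is incomplete, tubule cells keep a dedifferentiated state, macrophages and lymphocytes gather, and fibroblasts lay down collagen between the tubules. RNA-seq of whole kidney reads all of these cells together, and a lower level of a cell type's transcripts can come from fewer such cells or from less RNA in each, which cannot be told apart here.

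The 6 libraries held 25913969 to 31351652 counted reads, at which 1 read is 0.0319 to 0.0386 CPM, the count scaled to library depth. Levels below are normalized CPM, meaning CPM after scaling by edgeR's TMM factors, which were 1.14 to 1.18 in IgGK and 0.970 to 1.05 in LepK. Pearson's r of the log2 levels was 0.980 to 0.981 among the IgGK libraries, 0.973 to 0.981 among the LepK libraries and 0.958 to 0.975 between a library of each. The groups separated on the first principal component of the 9 kidney libraries (59.8% of the variance), and LepK library 2 stood apart from the other 8 on the second (9.23%). Transcripts of the kidney's own cell types were present in each library, such as *Slc34a1* of the proximal tubule and *Umod* of the loop of Henle (1019, 833 and 1015 in IgGK and 1185, 1082 and 1055 in LepK).

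IgGK libraries 1 and 2 also held transcripts of the adrenal cortex, the gland that lies on the kidney. The steroid hydroxylase gene *Cyp11b1* had 74.7, 103 and 1.13 in IgGK libraries 1 to 3 and 0, 0 and 0.0738 in LepK libraries 1 to 3. *Cyp21a1*, the adrenal 21-hydroxylase, had 126, 189.8 and 2.34 in IgGK and 0, 0.0335 and 0 in LepK. *Star*, which carries cholesterol into mitochondria for steroid synthesis, had 219.7, 257 and 9.6 in IgGK and 6.78, 5.3 and 7.53 in LepK. IgGK library 3 was thus far below the other IgGK libraries for these genes, but still above every LepK library. Against library 3 as the only IgGK library, the median log2 fold change of the adrenal cortex markers was -2.51, so this library was not free of adrenal transcripts. The summed level of the adrenal cortex markers was 694, 877 and 44.7 in IgGK, 31.4, 35.2 and 30.8 in LepK and 22.9, 21.4 and 25 in WTK, and in LepK and WTK it came mostly from *Scarb1*, a lipoprotein receptor that the kidney expresses too, and *Star*. All 8 tested adrenal markers were called lower in LepK, and 3 of them against IgGK library 3 alone. Among the 12 named genes with the largest fall, 11 had this pattern, with IgGK library 3 far below libraries 1 and 2 or, for *Chgb*, with library 2 alone high (1.71, 53.9 and 1.47), and the 12th was *Gpnmb*. In all, 19 of the genes called lower had less than 0.25 times the level of either other IgGK library in IgGK library 3. The genes described below were therefore also compared with IgGK library 3 as the only IgGK library, and a log2 fold change or a count of calls from that fit is given as a value against library 3. For single genes this value is given only in some cases. A gene described without it did not always keep its call, as with *Ccl8*, *Casp1*, *Acsm2*, *C3* and *Acadm*. The fit has 1 IgGK library, and over all genes it called 429 higher and 235 lower.

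Markers of other cell types also differed between libraries. The adipocyte markers summed to 1050.2, 1334 and 816 in IgGK and 726, 749 and 377 in LepK, where the lowest IgGK sum lay above the highest LepK sum. All 11 tested had values below 0, with a median of -0.90, and 1 was called lower. The adipocyte count was 0 by DESeq2 and 6 under scaling by library size alone, without TMM factors. It was 0 without IgGK library 1, IgGK library 2 or LepK library 3 and 2 without LepK library 2. The gene called was *Adipoq*, the adiponectin gene of fat cells (log2 fold change -1.26, standard error 0.40, adjusted p = 0.0429 from edgeR). *Adipoq* lost its call without IgGK library 1 or 2 or LepK library 1 or 3 (values -1.45 to -0.88, adjusted p = 0.0608 to 0.138). The erythroid markers, mainly hemoglobin genes, summed to 102, 167 and 192 in IgGK and 423, 369.7 and 259 in LepK, and 6 of the 6 tested were called higher, a count that was 1 against library 3. Of 8 urothelium markers tested, 5 were called lower, a count that was 3 without IgGK library 3, 3 without LepK library 1 and 2 against library 3, with sums of 109, 100.5 and 133 in IgGK and 72.1, 97.7 and 87.7 in LepK. Skeletal muscle markers stood near the floor in every library, with sums of 2.97, 4.29 and 2.77 and 3.09, 2.82 and 2.66. The part of these markers in the results below was not tested.

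**Figure D1:**
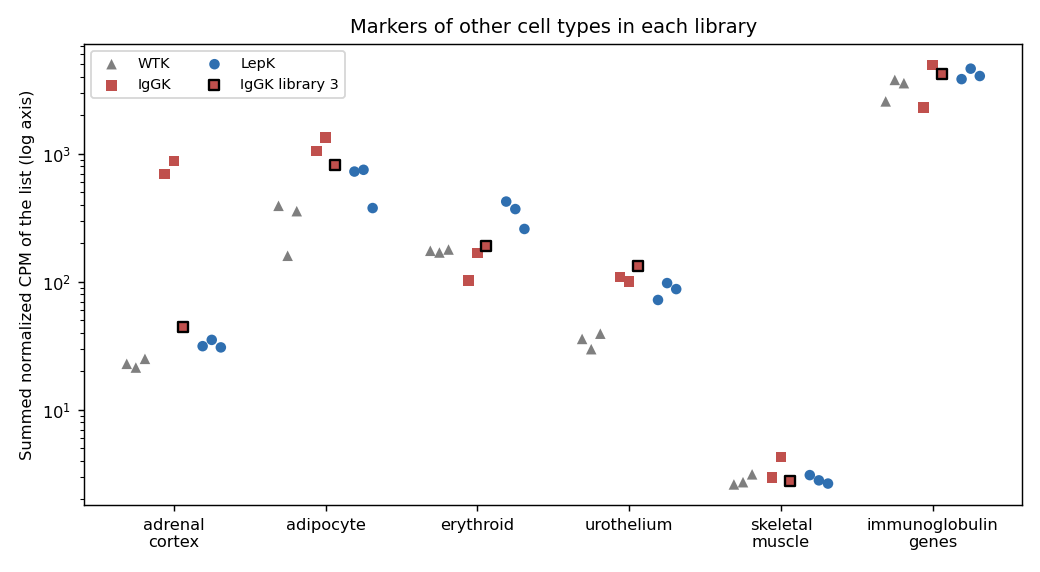
Summed normalized CPM (log axis) of 6 gene lists, 1 point per library, for WTK (triangles), IgGK (squares) and LepK (circles). The lists are markers of adrenal cortex, adipocytes, erythroid cells, urothelium and skeletal muscle, and the immunoglobulin genes. IgGK library 3, outlined in black, has an adrenal cortex sum of 44.7, against 694 and 877 in IgGK libraries 1 and 2 and at most 35.2 in LepK.

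Genes were called higher or lower in LepK from edgeR's quasi-likelihood fit of the 9 kidney libraries. A call needed an adjusted p (Benjamini-Hochberg) under 0.05 together with a log2 difference larger than 0.5 in size. Of the 19593 genes tested, 2032 (10.4%) were called, 858 higher (4.38%) and 1174 lower (5.99%), and the 3 LepK libraries lay wholly above or wholly below the 3 IgGK libraries for 7320 genes (37.4%). These shares are the background against which the counts within each group of genes are given. The libraries lay apart in this way for 832 of the 858 genes called higher and 1154 of the 1174 called lower. A lack of overlap is therefore almost given for a called gene and adds little to its call. The median log2 fold change of all genes tested was -0.01. Genes called higher were mostly moderate changes, with a median of 0.70 and 175 over 1, and genes called lower had a median of -0.84 and 428 under -1. LepK library 1 was the library farthest from IgGK for 650 of the genes called higher and for 861 of those called lower. Scaling by library size alone, without TMM factors, moved the median of all genes to -0.19 and the calls to 408 higher and 2185 lower, and the sign of a list's median given below held under it except where stated. The number called in a list is given under it where it moved by over 1.5 times.

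**Figure D2:**
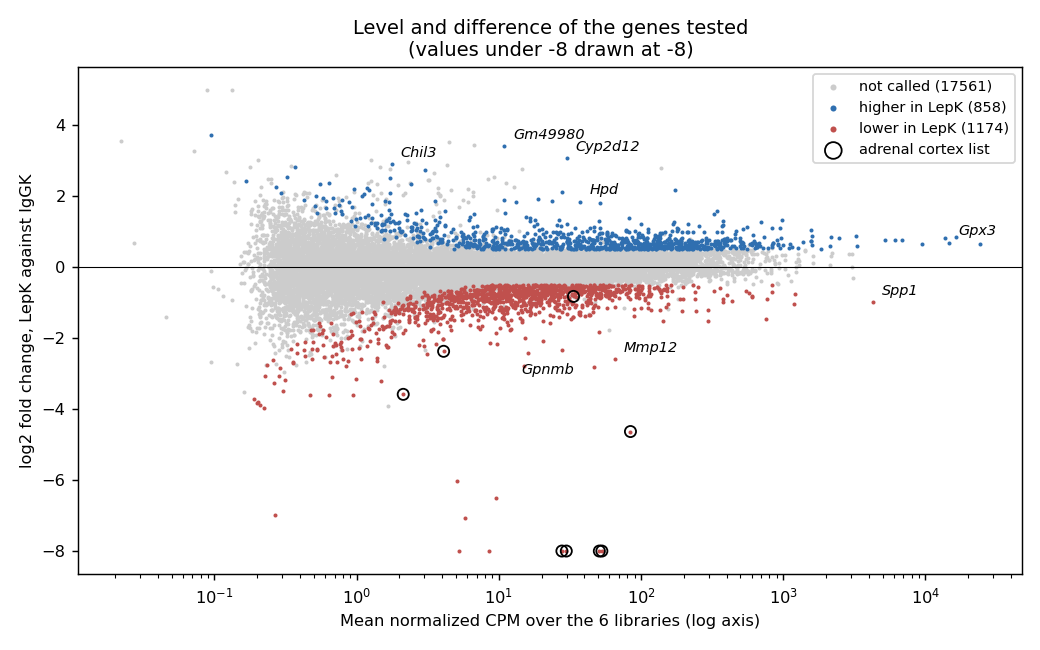
Mean normalized CPM over the 6 libraries (log axis) against the log2 fold change of LepK against IgGK for each of the 19593 genes tested. Points for genes called higher (858) and lower (1174) are colored, and circles mark the 8 adrenal cortex markers, 4 of which lie under -8 and are drawn at that value.

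Leptin's own transcript was scarce in kidney. In normalized CPM, *Lep* had 1.68, 1.46 and 1.62 in IgGK libraries 1 to 3, 1.65, 0.503 and 0.369 in LepK libraries 1 to 3 and a mean of 5.61 in WTK. The injured groups overlapped, and the difference was not called (adjusted p = 0.257 from edgeR). The receptor gene *Lepr*, counted over all its isoforms, had 9.86, 14.3 and 13.4 in IgGK and 14.5, 18.1 and 14.6 in LepK. The LepK libraries lay just above the IgGK libraries, a difference that was not called (log2 fold change 0.33, adjusted p = 0.155 from edgeR).

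Of 24 genes of the leptin receptor pathway, 2 were called lower and none higher. That is near the shares of all genes called lower (5.99%) and called in either direction (10.4%). Each of the 2 was a feedback inhibitor of cytokine receptors, and the count is not read as a result about the pathway. *Socs3* (ENSMUSG00000053113, chromosome 11, 117856905 to 117860873) had 29.9, 30.3 and 28.8 in IgGK and 14.8, 17 and 18 in LepK, with a WTK mean of 2.95. The IgGK libraries were close together and all above LepK, and the fall was 0.84 on the log2 scale (standard error 0.11, adjusted p = 0.00041 from edgeR), with a value against library 3 of -0.78. *Socs2*, an inhibitor of growth hormone and STAT5 signaling, had 54.3, 45.5 and 52.1 in IgGK and 31.9, 37 and 34.6 in LepK (log2 fold change -0.55, standard error 0.12, adjusted p = 0.00676 from edgeR) and lost its call without IgGK library 1 (-0.49, adjusted p = 0.0308) and without LepK library 1 (-0.50, adjusted p = 0.0318). *Stat3* was 149.8, 165 and 156 in IgGK and 117, 138 and 125 in LepK, and its log2 fold change of -0.31 did not reach the threshold of 0.5. The number called was 1 without IgGK library 1, 1 against library 3 and 4 under scaling by library size alone. The median over the 24 genes was -0.15.

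The 250 bases before the start of *Socs3* are shown because the gene is a STAT target whose level differed between the groups. They come from RefSeq (GRCm38.p6, chr11:117969367-117969616, minus strand), run 5′ to 3′ toward the start, and capitals mark the match to the STAT motif TTCNNNGAA, a palindrome that reads the same on both strands, which begins 154 bases before the start.
Socs3: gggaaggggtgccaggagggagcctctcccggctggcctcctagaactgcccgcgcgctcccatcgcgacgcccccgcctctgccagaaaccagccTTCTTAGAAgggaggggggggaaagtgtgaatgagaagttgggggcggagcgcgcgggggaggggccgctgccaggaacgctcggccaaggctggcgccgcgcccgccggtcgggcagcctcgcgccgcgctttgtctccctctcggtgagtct
Over windows from 250 bases before to 50 bases after the start, TTCNNNGAA was found for 9.27% of the 852 genes called lower that had a RefSeq promoter, 6.0% of the 600 called higher and 7.05% of the 13036 genes tested that had one. A match is a description of these letters and was not tested as a binding site.

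The interleukin-6 (IL-6) family signals through the same JAK and STAT proteins. Of its 15 ligands and receptors, 5 were called lower and none higher, with a median of -0.54. The IL-6 family count was 3 without IgGK library 2, 3 without LepK library 1 and 2 against library 3. *Osmr*, the oncostatin M receptor, had 64.5, 68.7 and 60.2 in IgGK and 30.9, 46.1 and 39.6 in LepK (log2 fold change -0.73, standard error 0.12, adjusted p = 0.00152 from edgeR), and the groups did not overlap. Transcripts of *Il6* itself (at most 0.572 normalized CPM in IgGK and 0.536 in LepK) were near the floor, and the difference was not called (adjusted p = 0.696 from edgeR).

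Transport genes of the proximal tubule were higher in LepK. Of 27 transporters and brush border genes, 15 were called higher and none lower, against 4.38% of all genes, with a median of 0.56. The transporter count was 10 against library 3 and 8 under scaling by library size alone. *Slc34a1*, the main phosphate carrier of the brush border (ENSMUSG00000021490, chromosome 13, 55546000 to 55563405), had 2516, 1891 and 2459 in IgGK, 4869, 3781 and 3993 in LepK and a mean of 9465 in WTK (log2 fold change 0.88, standard error 0.12, adjusted p = 0.000511 from edgeR). *Slc5a2*, the glucose carrier SGLT2, had 49.5, 51.3 and 54.3 in IgGK, 130.2, 92.2 and 93 in LepK and 349.6 in WTK (log2 fold change 1.02, standard error 0.12, adjusted p = 0.000244 from edgeR). The IgGK libraries were below every LepK library for both, and the LepK levels were still well under WTK. The other phosphate carrier *Slc34a3* rose by 1.32 (standard error 0.25, adjusted p = 0.00328 from edgeR), the largest rise of the list. *Slc6a19*, which takes up neutral amino acids, rose by 0.97. *Slc7a13*, an amino acid carrier of the last proximal segment, had 369.6, 180.1 and 369 in IgGK and 797, 553 and 522 in LepK, with IgGK library 2 lowest (log2 fold change 1.03, standard error 0.23, adjusted p = 0.00838 from edgeR). The endocytic receptor gene *Lrp2* had 778, 563 and 683 in IgGK and 1196, 836 and 954 in LepK (log2 fold change 0.56, standard error 0.13, adjusted p = 0.0101 from edgeR), but was not called without IgGK library 2 (0.45, adjusted p = 0.0354) and without LepK library 1 (0.41, adjusted p = 0.0342). *Slc13a1*, a sulfate carrier, gave the only negative value (-0.22 ± 0.09, log2 fold change ± standard error) and was not called.

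Among 25 carriers of organic ions and drugs, 15 were called higher and 2 lower, with a median of 0.61. The count of rises was 9 without LepK library 1, 8 against library 3 and 9 under scaling by library size alone. *Slc22a8* (OAT3), which brings organic anions from blood into the tubule cell, had 236, 236 and 214 in IgGK, 484, 464 and 403 in LepK and 676 in WTK (log2 fold change 0.98, standard error 0.08, adjusted p = 5.77e-05 from edgeR). *Slco4c1* and *Slc22a18* were higher by 0.96 and 1.0 on the log2 scale. The genes called lower were exporters. Their number was 0 against library 3. *Abcb1b*, an efflux pump with a close paralog between which reads can be split, had 58.6, 71.9 and 9.74 in IgGK and 9.51, 8.72 and 9.41 in LepK (log2 fold change -2.34, standard error 0.49, adjusted p = 0.00586 from edgeR). IgGK library 3 was far below libraries 1 and 2, as for the adrenal markers, and close to the LepK libraries. The value against library 3 was -0.07, not called. *Abcc3*, another exporter, had 21.7, 25.4 and 21 in IgGK and 10.2, 15.6 and 14.9 in LepK (log2 fold change -0.74, standard error 0.15, adjusted p = 0.00517 from edgeR). Over all 332 tested genes named as solute carriers, 62 were called higher (33 against library 3 and 32 under scaling by library size alone) and 17 lower (11 without IgGK library 2, 9 without LepK library 1, 4 against library 3 and 34 under scaling by library size alone), and their median of 0.16 turned to -0.02 under scaling by library size alone.

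Enzymes that break down amino acids and make glucose were higher in LepK. Of 27 tested, 22 were called higher and none lower, with a median of 0.76, and 23 were called against IgGK library 3 alone. *Hpd*, which acts in tyrosine breakdown (ENSMUSG00000029445, chromosome 5, 123309870 to 123320790), had 14.5, 14.9 and 19.2 in IgGK, 56.7, 59.6 and 59 in LepK and 92.4 in WTK. The LepK libraries stood close together and above all IgGK libraries, and the rise was 1.85 on the log2 scale (standard error 0.10, adjusted p = 5.86e-06 from edgeR). *Ass1*, which makes the precursor of arginine, had 545, 505 and 615 in IgGK, 1662, 1287 and 1225 in LepK and 2957 in WTK (log2 fold change 1.32, standard error 0.11, adjusted p = 6.42e-05 from edgeR). *Miox*, the myo-inositol oxygenase of the proximal tubule, had 552, 480.1 and 562 in IgGK, 1305, 1068 and 1058 in LepK and 2173 in WTK (log2 fold change 1.11, standard error 0.10, adjusted p = 6.42e-05 from edgeR). *G6pc*, the last enzyme of glucose production, had 167, 131 and 175 in IgGK, 389, 350.1 and 321 in LepK and 588 in WTK (log2 fold change 1.16, standard error 0.11, adjusted p = 7.16e-05 from edgeR). *Fbp1* rose by 0.68, while *Pck1*, the gate enzyme of the same pathway, had 2039, 1989.6 and 1707 in IgGK and 2388, 2482 and 2615 in LepK and a log2 fold change of 0.38, under the threshold (adjusted p = 0.00588 from edgeR).

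HNF1 and HNF4 are transcription factors of the mature proximal tubule. *G6pc* was picked for its HNF1 motif, which most promoters of the genes called higher lack, and its promoter is shown here. It gives the 250 bases before the RefSeq start (GRCm38.p6, chr11:101367466-101367715, plus strand) 5′ to 3′, with capitals at the HNF1 motif GTTAATNAT, 221 bases before the start, and at the TATA box TATAAA, 29 bases before it.
G6pc: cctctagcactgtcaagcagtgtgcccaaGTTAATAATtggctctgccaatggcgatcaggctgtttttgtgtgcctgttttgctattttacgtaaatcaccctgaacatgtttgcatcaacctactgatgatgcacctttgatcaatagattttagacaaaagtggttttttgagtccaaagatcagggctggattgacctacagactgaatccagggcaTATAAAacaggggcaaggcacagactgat
The HNF1 motif was found, on either strand, in the windows of 2.83% of the genes called higher, 0.469% of those called lower and 0.675% of those tested, and the HNF4 motif CAAAGTCCA in 1.17%, 0.939% and 0.437%. The 2.83% are 17 of 600 genes. *Hnf4a* itself was not called, and had 419, 353 and 389.6 in IgGK and 609.97, 454 and 527 in LepK (log2 fold change 0.45, standard error 0.10, adjusted p = 0.00736 from edgeR), with LepK above IgGK throughout. *Klf15*, a factor of tubule metabolism, was called higher, with 43.7, 33 and 45.3 in IgGK and 75.3, 65.6 and 72.3 in LepK (log2 fold change 0.81, standard error 0.11, adjusted p = 0.000478 from edgeR).

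Mitochondrial transcripts were higher in LepK. Of the 13 protein genes on the mitochondrial genome, 11 were called higher (9 against library 3), and the share of mitochondrial transcripts among all reads was 5.85% to 6.27% in IgGK, 8.01% to 9.65% in LepK and 9.41% to 9.62% in WTK. *mt-Cytb*, a subunit of complex III, had 10148, 9313 and 9929.9 in IgGK and 20470, 16551 and 15340 in LepK (log2 fold change 0.83, standard error 0.10, adjusted p = 0.000277 from edgeR). *mt-Nd4* of complex I had 5424, 4774 and 4875 in IgGK and 9777, 8115 and 7838 in LepK (log2 fold change 0.77, standard error 0.09, adjusted p = 0.000267 from edgeR), and for both the lowest LepK library lay above the highest IgGK library. The 29 nuclear genes for subunits of the respiratory chain all had positive values, between 0.31 for *Cox5b* and 0.59 for *Sdhb*, and 5 were called. *Sdhb* had 217, 189 and 207 in IgGK and 346, 290.1 and 287 in LepK (log2 fold change 0.59, standard error 0.08, adjusted p = 0.000685 from edgeR). The number called was 10 without IgGK library 1, 2 without IgGK library 2, 9 without IgGK library 3, 2 without LepK library 1, 12 without LepK library 2, 3 against library 3 and 0 under scaling by library size alone. *Ppargc1a*, a coactivator that drives mitochondrial genes, had 38.8, 40.8 and 42.8 in IgGK and 55.2, 50.5 and 51 in LepK (log2 fold change 0.36, standard error 0.07, adjusted p = 0.00304 from edgeR), also under the threshold.

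Of 30 genes of fatty acid oxidation and the peroxisome, 9 were called higher and none lower, with a median of 0.36. The fatty acid count was 3 without LepK library 1, 6 against library 3 and 2 under scaling by library size alone. *Acsm2*, a ligase for medium-chain fatty acids of the proximal tubule, had 1809.7, 991 and 1796 in IgGK and 3686, 2219.9 and 2438 in LepK (log2 fold change 0.86, standard error 0.22, adjusted p = 0.0147 from edgeR), and was not called without LepK library 1 (0.61, adjusted p = 0.0599). *Cat*, the peroxisomal catalase, had 607, 503 and 533 in IgGK and 912, 749 and 817 in LepK (log2 fold change 0.59, standard error 0.09, adjusted p = 0.000957 from edgeR). *Acadm*, which acts on medium-chain fatty acids, rose by 0.57, but was not called without IgGK library 2 (0.44, adjusted p = 0.0271) and without LepK library 1 (0.44, adjusted p = 0.0378). *Cpt1a*, the carnitine transferase at the entry to mitochondria, was not called (log2 fold change 0.34). In glycolysis, 1 of 18 genes was called in each direction. Under scaling by library size alone 4 were called lower and none higher. *Hk3*, a hexokinase of myeloid cells, had 8.28, 10.1 and 9.42 in IgGK and 3.23, 3.65 and 4.1 in LepK (log2 fold change -1.34, standard error 0.19, adjusted p = 0.000755 from edgeR). The gene called higher was *Gapdh*, at 14.3, 26.5 and 17.9 in IgGK and 24.7, 41.5 and 39.5 in LepK, where the groups overlapped, whose many near-identical pseudogenes make its counts uncertain and whose call was lost without IgGK library 1 or 3 or LepK library 2 or 3 (values 0.68 to 0.79, adjusted p = 0.0739 to 0.0845).

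Detoxifying enzymes were among the genes with the largest rises. *Cyp2d12*, a cytochrome P450 (ENSMUSG00000096852, chromosome 15, 82439273 to 82444604), had 4.19, 7.43 and 7.43 in IgGK, 80.7, 38 and 42.5 in LepK and 138 in WTK (log2 fold change 3.07, standard error 0.28, adjusted p = 7.16e-05 from edgeR). LepK library 1 was highest, and all 3 were above IgGK. *Cyp4a12a*, which makes the vasoactive lipid 20-HETE in male mouse kidney, had 11.2, 5.77 and 14.6 in IgGK, 75.3, 31.4 and 29.2 in LepK and 436 in WTK (log2 fold change 2.11, standard error 0.37, adjusted p = 0.00229 from edgeR), and its value against library 3, 1.65, was not called. *Cyp2d9* and *Cyp2a4* rose by 1.26 and 1.06. These genes belong to families of close paralogs, between which reads can be split. In all, 14 of 63 tested P450 genes were called higher (9 against library 3 and 9 under scaling by library size alone) and 5 lower (2 against library 3), and the latter included *Cyp11a1*, *Cyp11b1* and *Cyp21a1* of the adrenal cortex. Of 45 glucuronosyl, glutathione and sulfo transferases, 9 were called higher (5 against library 3 and 5 under scaling by library size alone) and none lower, among them *Gstk1*, with 35.8, 34 and 31.1 in IgGK and 63.6, 53.5 and 55.2 in LepK (log2 fold change 0.77, standard error 0.08, adjusted p = 0.000139 from edgeR). *Gpx3*, the secreted glutathione peroxidase made by the kidney, had 11193, 11500 and 10876 in IgGK and 19136, 18511 and 16543 in LepK (log2 fold change 0.69, standard error 0.08, adjusted p = 0.00019 from edgeR). The cystine carrier gene *Slc7a11*, a target of the stress factor NRF2, was called lower, with 2.24, 3.26 and 2.66 in IgGK and 0.724, 0.335 and 0.665 in LepK (log2 fold change -2.24, standard error 0.52, adjusted p = 0.0096 from edgeR). In all, 3 of 27 NRF2 targets were called higher and 1 lower. The NRF2 falls were 2 without IgGK library 2, 2 without LepK library 3, 1 against library 3 and 3 under scaling by library size alone. The median of 0.07 turned to -0.11 under scaling by library size alone.

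Of 32 genes of the loop of Henle, distal tubule and collecting duct, 15 were called higher and none lower, with a median of 0.48. The distal nephron count was 9 against library 3 and 8 under scaling by library size alone. *Egf*, the growth factor precursor of the thick ascending limb and distal tubule (ENSMUSG00000028017, chromosome 3, 129471214 to 129548965), had 249.96, 181 and 258 in IgGK, 592, 503 and 466 in LepK and 858 in WTK (log2 fold change 1.18, standard error 0.12, adjusted p = 0.000149 from edgeR). *Pvalb*, a calcium buffer of the early distal tubule, had 4.45, 3.97 and 5.35 in IgGK, 17.9, 19.5 and 13.8 in LepK and 26.7 in WTK (log2 fold change 1.90, standard error 0.16, adjusted p = 6.42e-05 from edgeR), the largest rise of the list. *Klk1*, the tissue kallikrein of the connecting tubule, had 539.6, 638 and 624 in IgGK and 1423, 1293 and 1153 in LepK (log2 fold change 1.10, standard error 0.10, adjusted p = 6.42e-05 from edgeR), close to 1526 in WTK. The IgGK and LepK libraries did not overlap for any of the 3. *Slc12a3*, the thiazide-sensitive sodium chloride carrier, had 743, 635 and 780.3 in IgGK and 1236, 1095 and 1023 in LepK (log2 fold change 0.64, standard error 0.09, adjusted p = 0.000912 from edgeR). *Slc26a4*, the anion exchanger pendrin of intercalated cells, rose by 0.80. *Umod* (log2 fold change 0.21) and the water channel *Aqp2* (0.48) were not called. *Slc4a1*, which is listed under intercalated cells, is shared with red blood cells, whose hemoglobin genes moved the same way.

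Among hormonal genes, *Kl*, the co-receptor Klotho for the phosphate hormone FGF23, had 269, 214 and 262 in IgGK, 493, 374 and 382 in LepK and 791 in WTK (log2 fold change 0.74, standard error 0.11, adjusted p = 0.00106 from edgeR). *Ren1*, the renin of the juxtaglomerular cells, had 19.98, 20.9 and 22 in IgGK, 47.1, 33.7 and 39.2 in LepK and 66.7 in WTK (log2 fold change 0.93, standard error 0.11, adjusted p = 0.000287 from edgeR). *Pth1r*, the parathyroid hormone receptor, rose by 0.59, and *Ace*, with 137, 83.3 and 143 in IgGK and 247, 159.7 and 162 in LepK, by 0.64 (adjusted p = 0.0343 from edgeR), though it was not called without IgGK library 2 (0.44, adjusted p = 0.0906) and without LepK library 1 (0.41, adjusted p = 0.148). With these, 4 of the 15 genes of vitamin D, klotho and renin-angiotensin were called higher and none lower, a count that was 3 against library 3 and 2 under scaling by library size alone. Among 15 podocyte genes none was called by edgeR or DESeq2 in either direction, 6 had an unadjusted p under 0.05 in edgeR, and their median of 0.06 turned to -0.12 under scaling by library size alone. *Nphs1*, a slit diaphragm gene, had a log2 fold change of 0.41. Of 20 endothelial genes 2 were called higher, *Plvap* (86.3, 81.2 and 80.8 in IgGK and 128, 116 and 114 in LepK, log2 fold change 0.53, standard error 0.07, adjusted p = 0.000698 from edgeR) and *Robo4* (0.52). The endothelial count was 0 without LepK library 1, 1 against library 3 and 0 under scaling by library size alone. The endothelial marker *Pecam1* was not called (log2 fold change 0.21).

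**Figure D3:**
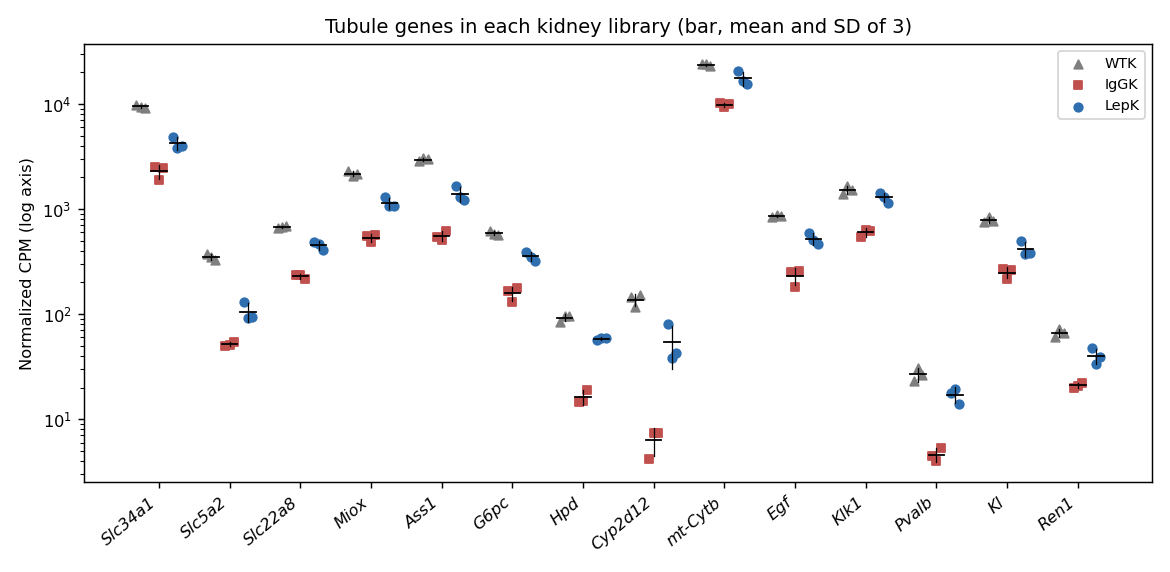
Normalized CPM (log axis) of 14 tubule genes in each kidney library, with WTK as triangles, IgGK as squares and LepK as circles, and bars at the mean and SD of 3 libraries. For each of the 14 genes the 3 LepK circles lie above the 3 IgGK squares, and their mean lies below that of WTK. The 14 were picked among called genes, and genes that were not called, such as *Umod* and *Aqp2*, are not drawn. Not every gene called higher had a LepK mean below WTK, as with *S100g*, which is described below and not drawn.

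Injury genes of the tubule were lower in LepK. Of 27 genes of injured or failed-repair tubule cells, 17 were called lower and none higher, against 5.99% of all genes, with a median of -0.60. The injury gene count was 11 without LepK library 1 and 6 against library 3. *Havcr1*, which encodes the injury marker KIM-1 (ENSMUSG00000040405, chromosome 11, 46625907 to 46670405), had 155, 117 and 141 in IgGK, 55.4, 55.3 and 74 in LepK and 1.09 in WTK (log2 fold change -1.16, standard error 0.15, adjusted p = 0.000506 from edgeR). *Lcn2*, the iron-binding lipocalin NGAL, had 114, 152 and 118 in IgGK, 43.2, 52 and 54.5 in LepK and 3.37 in WTK (log2 fold change -1.36, standard error 0.15, adjusted p = 0.000176 from edgeR). The groups did not overlap for either, and LepK remained far above WTK. *Vcam1*, an adhesion molecule of failed-repair tubule cells, had 263, 275 and 236 in IgGK and 110.05, 138 and 169.7 in LepK (log2 fold change -0.89, standard error 0.16, adjusted p = 0.00255 from edgeR). *Dcdc2a* fell by 0.86, *Sox9*, a factor of regenerating tubule, by 1.06, and *Krt20*, an injury keratin, by 0.63 on the log2 scale. The cell cycle inhibitor *Cdkn1a* had 21.2, 29 and 26.6 in IgGK and 10.2, 16.3 and 16.2 in LepK (log2 fold change -0.85, standard error 0.17, adjusted p = 0.00506 from edgeR), and with it 4 of 21 genes of the p53 response and senescence were called lower, a number that was 2 without IgGK library 2, 2 without IgGK library 3, 1 without LepK library 1 and 0 against library 3. The list of 32 tested transcription factors of tubule and repair was mixed, with 3 called higher, 5 called lower, 17 values above 0 and 15 below. Its median of 0.09 turned to -0.08 under scaling by library size alone, where 1 was called higher and 9 lower. Rises were 5 without IgGK library 1, 1 without IgGK library 2, 1 without LepK library 1 and 6 without LepK library 2. Falls were 3 without LepK library 1. Among transcription factors of repair, *Runx1* had 20.1, 25.9 and 22.9 in IgGK and 11.4, 15 and 12.7 in LepK (log2 fold change -0.82, standard error 0.15, adjusted p = 0.00253 from edgeR).

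Of 41 tested collagen genes, 14 were called lower and 2 higher, with a median of -0.46. The collagen falls were 8 against library 3. The collagen rises were 1 without IgGK library 2, 1 without IgGK library 3, 1 without LepK library 1, 1 without LepK library 2, 0 against library 3 and 0 under scaling by library size alone. *Col12a1*, a collagen that sits on the surface of fibrils, had 76.2, 88.9 and 73.3 in IgGK, 15.5, 23.9 and 27.3 in LepK and 10.1 in WTK (log2 fold change -1.84, standard error 0.17, adjusted p = 6.93e-05 from edgeR). *Col1a2* had 409, 428 and 388 in IgGK and 122, 224 and 189 in LepK (log2 fold change -1.19, standard error 0.16, adjusted p = 0.000536 from edgeR). *Col5a1*, a minor fibril collagen that seeds fibrils, had 53.5, 54.1 and 47.2 in IgGK and 21.5, 26.8 and 25.9 in LepK (log2 fold change -1.06, standard error 0.09, adjusted p = 6.75e-05 from edgeR). LepK library 1 was the lowest and library 2 the highest of the 3 for *Col1a1* (95.1, 188 and 153), *Col1a2* and *Col3a1* (108, 199.7 and 153). Of 10 fibrillar collagens 5 were called lower and *Col27a1* higher (0.58). In the basement membrane, 7 of 24 genes were called lower and none higher, and the count was 3 against library 3 and 11 under scaling by library size alone. *Col4a1*, found in all basement membranes, had 409, 419.8 and 382 in IgGK and 219, 258 and 276 in LepK (log2 fold change -0.68, standard error 0.09, adjusted p = 0.000373 from edgeR), whereas *Col4a3*, of the glomerular membrane, had 163, 131 and 145 in IgGK and 187, 138 and 158 in LepK, which overlap, and was not called (log2 fold change 0.14). *Col15a1* fell by 1.15 and *Nid1* by 0.68.

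Of 33 genes for proteins that build elastic fibres or link cells to matrix, 18 were called lower and none higher, with a median of -0.79. The matrix protein count was 6 against library 3. *Fbn1*, the fibrillin of microfibrils (ENSMUSG00000027204, chromosome 2, 125142514 to 125349913), had 54.7, 51.4 and 53.4 in IgGK, 17.8, 24.6 and 20.3 in LepK and 9.57 in WTK (log2 fold change -1.34, standard error 0.10, adjusted p = 5.62e-05 from edgeR). *Tnc*, the matrix protein tenascin C, had 85.9, 96.2 and 85.6 in IgGK and 29.5, 48.6 and 46 in LepK (log2 fold change -1.11, standard error 0.20, adjusted p = 0.00242 from edgeR). *Postn* fell by 1.07, but was not called without LepK library 3 (-0.91, adjusted p = 0.0507). *Ccn2*, a target of transforming growth factor beta (TGF-beta), had a log2 fold change of -0.04, and *Eln*, elastin, of -0.27, and neither was called. Among enzymes that process collagen, 9 of 23 were called lower (2 against library 3), such as the crosslinking *Lox* (38.1, 41.3 and 34.9 in IgGK and 13.6, 24.7 and 15.9 in LepK, log2 fold change -1.07, standard error 0.20, adjusted p = 0.00323 from edgeR) and the propeptidase *Bmp1* (-0.83).

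Of 19 fibroblast markers tested, 7 were called lower and none higher, with a median of -0.49. The fibroblast count was 4 against library 3. *Meg3*, an imprinted noncoding RNA of stromal cells, had 29.3, 43.2 and 6.76 in IgGK, 3.56, 6.1 and 1.74 in LepK and 3.34 in WTK (log2 fold change -2.79, standard error 0.57, adjusted p = 0.00498 from edgeR), where IgGK library 3 lay near the LepK libraries and the value against library 3, -0.82, was not called. *Cthrc1*, of activated fibroblasts, had 0.956, 0.714 and 1.21 in IgGK and 0.0658, 0.335 and 0.222 in LepK, near the floor, and its fall of 2.19 was not called without IgGK library 1 or 3 or LepK library 1 or 3 (values -2.24 to -1.76, adjusted p = 0.0504 to 0.0788). *Cdh11*, a cadherin of fibroblasts, had 66.3, 60.6 and 58.8 in IgGK and 17.9, 27.4 and 28.4 in LepK (log2 fold change -1.34, standard error 0.16, adjusted p = 0.000252 from edgeR). *Pdgfra*, their growth factor receptor, had 109.5, 101 and 100.4 in IgGK and 50.8, 62.6 and 58.9 in LepK (log2 fold change -0.85, standard error 0.08, adjusted p = 0.000115 from edgeR). The myofibroblast gene *Acta2*, smooth muscle actin, had 71.8, 72.6 and 64.8 in IgGK and 56.8, 68.6 and 63 in LepK, which overlap, and was not called (log2 fold change -0.15, standard error 0.08, adjusted p = 0.211 from edgeR). *Pdgfrb*, a receptor of pericytes and fibroblasts, was not called either (log2 fold change -0.41).

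Of 17 tested matrix metalloproteinases, 9 were called lower, none higher and all 17 had values below 0, with a median of -0.93. The protease count was 4 against library 3. *Mmp7*, matrilysin, a secreted protease of injured epithelium (ENSMUSG00000018623, chromosome 9, 7692091 to 7699586), had 15, 22 and 18.6 in IgGK, 3.49, 5.67 and 7.05 in LepK and 0.0383 in WTK (log2 fold change -1.78, standard error 0.25, adjusted p = 0.000648 from edgeR). *Mmp2* had 19.1, 22.5 and 20.2 in IgGK and 5.23, 8.35 and 9.34 in LepK (log2 fold change -1.43, standard error 0.20, adjusted p = 0.00065 from edgeR). *Mmp14*, which activates MMP2 at the cell surface, had 130.1, 151 and 141 in IgGK and 53.8, 94.4 and 73.5 in LepK (log2 fold change -0.93, standard error 0.15, adjusted p = 0.00126 from edgeR). Of 35 ADAM and ADAMTS proteases 9 were called lower, a count that was 2 against library 3 and 15 under scaling by library size alone. *Adam12* had 24.5, 23.5 and 24 in IgGK and 7.28, 10.3 and 10.6 in LepK (log2 fold change -1.35, standard error 0.14, adjusted p = 0.000133 from edgeR). The cathepsin *Ctsk* had 31.9, 35 and 34.6 in IgGK and 12.1, 19.3 and 15.4 in LepK (log2 fold change -1.12, standard error 0.14, adjusted p = 0.000362 from edgeR).

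The start of *Mmp7* is shown with that of *Cd68*, a macrophage gene described next. Both were picked for the motif TGANTCA of the factor AP-1, which most promoters of the genes called lower lack. A part of AP-1 in the level of either gene was not tested. Each is the 250 bases before the RefSeq start (GRCm38.p6), 5′ to 3′, at chr9:7691840-7692089 on the plus strand and chr11:69666171-69666420 on the minus strand. Capitals mark TGANTCA, a palindrome that begins 63 bases before the start of *Mmp7* and 149 and 24 bases before that of *Cd68*, and in *Mmp7* also TATAAA.
Mmp7: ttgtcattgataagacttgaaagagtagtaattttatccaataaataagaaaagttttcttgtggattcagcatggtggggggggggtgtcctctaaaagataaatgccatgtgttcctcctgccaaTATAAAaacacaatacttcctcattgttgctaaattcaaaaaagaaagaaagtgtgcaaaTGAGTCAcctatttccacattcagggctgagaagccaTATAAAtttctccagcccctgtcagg
Cd68: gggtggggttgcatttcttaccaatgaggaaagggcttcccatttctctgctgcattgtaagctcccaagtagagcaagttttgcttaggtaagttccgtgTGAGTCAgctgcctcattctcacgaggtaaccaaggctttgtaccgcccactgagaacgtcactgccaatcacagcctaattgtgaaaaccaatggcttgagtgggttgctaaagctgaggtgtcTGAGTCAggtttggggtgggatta
The AP-1 motif was found in the windows of 8.33% of the genes called lower, 7.0% of those called higher and 5.7% of those tested, so the share was above that of all tested genes in both directions. Among 21 immediate early genes, which include the AP-1 subunits, 5 were called lower and none higher, a number that was 2 without IgGK library 2, 2 without LepK library 1, 8 without LepK library 2, 1 against library 3 and 14 under scaling by library size alone. *Fosl2* had 70.7, 80.5 and 72.1 in IgGK and 40.6, 49.9 and 49.2 in LepK (log2 fold change -0.68, standard error 0.09, adjusted p = 0.000395 from edgeR). *Junb* fell by 0.50, but was not called without IgGK library 2 (-0.42, adjusted p = 0.0115) and without LepK library 1 (-0.42, adjusted p = 0.011). *Fos* had 10.7, 8.83 and 11.2 in IgGK and 3.42, 6.34 and 5.58 in LepK and missed the threshold (adjusted p = 0.0509 from edgeR). *Nr4a1*, an orphan nuclear receptor, had 24.6, 36.3 and 12.5 in IgGK and 4.12, 8.78 and 5.5 in LepK, and its fall of 2.0 was -1.02 against library 3, which held the lowest IgGK level and where it was not called.

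Macrophage markers were lower in LepK. Of 29 macrophage and monocyte genes, 22 were called lower and none higher, with a median of -1.11. The macrophage count was 13 against library 3. Their summed level was 4408, 5393 and 4503 in IgGK and 2019, 2739.7 and 2637 in LepK. *Gpnmb*, a glycoprotein of lipid-laden macrophages (ENSMUSG00000029816, chromosome 6, 49013480 to 49047863), had 68.1, 101 and 75.2 in IgGK, 6.75, 14.3 and 14 in LepK and 0.447 in WTK (log2 fold change -2.81, standard error 0.31, adjusted p = 0.000196 from edgeR), with a value against library 3 of -2.68. *Cd68*, of the macrophage lysosome, had 44.7, 58.4 and 41.5 in IgGK, 15, 20.8 and 19.1 in LepK and 4.87 in WTK (log2 fold change -1.40, standard error 0.15, adjusted p = 0.000185 from edgeR). *Adgre1*, the antigen F4/80, had 35.5, 39.98 and 39.2 in IgGK and 11.5, 15 and 16.8 in LepK (log2 fold change -1.41, standard error 0.13, adjusted p = 7.16e-05 from edgeR). Every LepK library was under every IgGK library for the 3 genes, and LepK library 1 was the lowest each time. *Trem2*, a lipid receptor of these cells, had 33.4, 42.7 and 28.9 in IgGK and 8.86, 14.4 and 16.9 in LepK (log2 fold change -1.39, standard error 0.22, adjusted p = 0.00124 from edgeR). *Ccr2*, the receptor that brings in monocytes, had 59.9, 69.8 and 62.9 in IgGK and 25.6, 32.7 and 34.3 in LepK (log2 fold change -1.06, standard error 0.10, adjusted p = 0.000115 from edgeR). *Csf1r*, the growth factor receptor on which macrophages depend, was not called (log2 fold change -0.36), nor was *Mertk*, an engulfment receptor (0.19). *Chil3*, a chitinase-like protein of alternatively activated macrophages, went the other way, with 0.264, 0.8 and 0.173 in IgGK and 1.32, 6.87 and 1.18 in LepK (log2 fold change 2.90, standard error 0.82, adjusted p = 0.0254 from edgeR), where LepK library 2 was highest, and it was not called without IgGK library 1 or 3 or LepK library 2 (values 1.58 to 2.69, adjusted p = 0.0786 to 0.202).

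Of 33 tested chemokine ligands 12 were called lower and none higher, with a median of -0.67. The chemokine ligand count was 5 without IgGK library 2, 4 without LepK library 1 and 2 against library 3. *Ccl6* had 39.9, 53.4 and 47.3 in IgGK and 12.5, 19.5 and 19.1 in LepK (log2 fold change -1.46, standard error 0.18, adjusted p = 0.000309 from edgeR). *Ccl8*, another attractant of monocytes, had 13.4, 22.5 and 15.3 in IgGK and 5.04, 7.01 and 5.35 in LepK (log2 fold change -1.56, standard error 0.29, adjusted p = 0.00318 from edgeR). *Ccl2*, the main ligand of CCR2, had 16.1, 15.3 and 17.7 in IgGK and 7.41, 10.6 and 11.3 in LepK (log2 fold change -0.74, standard error 0.23, adjusted p = 0.0391 from edgeR). Its groups did not overlap, but it was not called without IgGK library 1, 2 or 3 or LepK library 1 or 3 (values -0.86 to -0.57, adjusted p = 0.0513 to 0.135). Of 20 chemokine receptors 8 were called lower, a number that was 3 without IgGK library 2, 5 without IgGK library 3, 3 without LepK library 1, 5 without LepK library 3 and 1 against library 3. *Cxcr4* had 13.5, 18.2 and 13.2 in IgGK and 3.79, 7.38 and 7.68 in LepK (log2 fold change -1.25, standard error 0.24, adjusted p = 0.0038 from edgeR). Part of the gene *Ackr1* overlaps *Cadm3*, and both were called lower (-1.62 and -2.02), *Ackr1* in 1 of the 6 fits that leave out a library, and reads in the stretch they share on the same strand could be counted to either.

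Of 30 T cell and NK cell genes 2 were called lower, *Il7r* (8.41, 13.1 and 10.3 in IgGK and 2.4, 4.36 and 4.54 in LepK, log2 fold change -1.50, standard error 0.28, adjusted p = 0.00297 from edgeR) and *Cd3d*. The fall of *Cd3d*, 1.14, was not called without IgGK library 2 or 3 or LepK library 1 or 3 (values -1.14 to -0.94, adjusted p = 0.0556 to 0.0926), and the median was -0.42. The T and NK cell count was 1 without IgGK library 2, 1 without IgGK library 3, 1 without LepK library 1, 4 without LepK library 2, 1 without LepK library 3, 0 against library 3 and 5 under scaling by library size alone. *Cd3e* had 1.91, 6.32 and 3.73 in IgGK and 3.16, 2.98 and 2.84 in LepK and *Cd8a* had 4.58, 9.83 and 5.9 in IgGK and 5.14, 6.27 and 7.64 in LepK, which overlap, and neither was called (adjusted p = 0.58 and 0.852 from edgeR). None of 24 B cell and plasma cell genes was called by edgeR or DESeq2, and 4 had an unadjusted p under 0.05 in edgeR. *Igkc*, the kappa light chain constant region, had 748, 1641 and 1401 in IgGK and 1228, 1424 and 1293 in LepK. Of 15 neutrophil genes 9 were not tested for low counts. Of the other 6, 4 were called lower, a count that was 1 without IgGK library 2, 2 without IgGK library 3, 2 without LepK library 1 and 0 against library 3. *Csf3r*, the receptor for the growth factor G-CSF, had 15.3, 17.2 and 12.8 in IgGK and 5.99, 6.5 and 6.98 in LepK (log2 fold change -1.22, standard error 0.18, adjusted p = 0.000743 from edgeR). The summed level of the list was 23.2, 30.4 and 22.2 in IgGK and 10.3, 10.9 and 12.3 in LepK. *Csf3r* was called in each of the 6 fits with 1 library left out, and its value against library 3, -0.97, was not called. *S100a8* had 2.28, 3.32 and 1.59 in IgGK and 0.362, 0.201 and 0.665 in LepK (log2 fold change -2.55, standard error 0.60, adjusted p = 0.0109 from edgeR) and was not called without IgGK library 2 (-2.23, adjusted p = 0.0555). *Ly6g* was counted 0 times in each IgGK library and 2, 0 and 6 times in LepK libraries 1 to 3.

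Of 23 antigen presentation genes 13 were called lower, none higher, and all 23 had values below 0, with a median of -0.60. *H2-Aa*, a class II chain, had 663, 902 and 755 in IgGK, 364, 471 and 448 in LepK and 119.5 in WTK (log2 fold change -0.85, standard error 0.13, adjusted p = 0.001 from edgeR). *Cd74*, the class II chaperone, had 1341, 1762 and 1452 in IgGK and 755, 1003 and 934 in LepK (log2 fold change -0.76, standard error 0.12, adjusted p = 0.0014 from edgeR). *Ciita*, the regulator of class II genes, had 31.9, 44.7 and 38.9 in IgGK and 17.9, 20.8 and 20.9 in LepK (log2 fold change -0.96, standard error 0.13, adjusted p = 0.000476 from edgeR). The class I gene *H2-K1* had a log2 fold change of -0.48, just under the threshold, and the number of calls was 8 without IgGK library 2 and 5 against library 3. Genes induced by interferon were called lower in 14 of 31 cases and never higher, with *Oas2* at 18.7, 25 and 21.5 in IgGK and 11.7, 11.7 and 9.56 in LepK (log2 fold change -0.99, standard error 0.14, adjusted p = 0.00065 from edgeR), but the number was 4 without IgGK library 2, 2 against library 3 and 23 under scaling by library size alone. *Isg15* fell by 0.56, but was not called without IgGK library 1, 2 or 3 or LepK library 1 or 3 (values -0.63 to -0.42, adjusted p = 0.0534 to 0.199), and *Ifit3* was not called (-0.20).

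Of 26 complement genes 16 were called lower and none higher, with a median of -0.90. The complement count was 9 against library 3. *C1qa*, a subunit of the starter complex made by macrophages, had 183, 245 and 195 in IgGK, 78.4, 111 and 112 in LepK and 24.4 in WTK (log2 fold change -1.05, standard error 0.14, adjusted p = 0.000536 from edgeR). *C3*, the central component, had 887, 1205 and 888 in IgGK and 333, 544 and 719 in LepK (log2 fold change -0.90, standard error 0.26, adjusted p = 0.0274 from edgeR), and was not called without IgGK library 2 or LepK library 1 or 2 (values -0.91 to -0.65, adjusted p = 0.0524 to 0.102). *Cfb*, of the alternative pathway, was not called (4.48, 3.92 and 4.62 in IgGK and 5.5, 4.22 and 5.39 in LepK, log2 fold change 0.21).

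Of 32 genes of the IL-1 and tumor necrosis factor (TNF) families, 14 were called lower and none higher, with a median of -0.69. The cytokine count was 2 against library 3. *Il1b*, the macrophage cytokine IL-1 beta, had 5.84, 7.74 and 6.53 in IgGK and 2.01, 1.81 and 3.51 in LepK (log2 fold change -1.46, standard error 0.32, adjusted p = 0.00744 from edgeR). *Casp1*, which cleaves it, had 6.33, 9.66 and 7.83 in IgGK and 3.29, 3.96 and 2.36 in LepK (log2 fold change -1.31, standard error 0.26, adjusted p = 0.00435 from edgeR). *Tnfrsf1b*, the TNF receptor of immune cells, had 38.1, 49.8 and 43.8 in IgGK and 18.1, 24.6 and 21.3 in LepK (log2 fold change -1.04, standard error 0.15, adjusted p = 0.000755 from edgeR). *Il33*, an alarmin of stromal and epithelial cells, had 21.3, 23.3 and 21.6 in IgGK and 13.3, 12.9 and 12.2 in LepK (log2 fold change -0.78, standard error 0.10, adjusted p = 0.000428 from edgeR). *Tnf* itself had 2.7, 3.6 and 3.76 in IgGK and 1.51, 3.65 and 1.96 in LepK, which overlap, and was not called (adjusted p = 0.472 from edgeR).

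In the TGF-beta family, which drives matrix genes in fibroblasts, 6 of 33 genes were called lower and none higher, with a median of -0.23. The TGF-beta family count was 1 against library 3 and 14 under scaling by library size alone. The activin subunit genes *Inhba* (4.78, 6.72 and 5.81 in IgGK and 1.68, 1.54 and 2.44 in LepK, log2 fold change -1.61, standard error 0.31, adjusted p = 0.00341 from edgeR) and *Inhbb* (16.6, 21.4 and 16 in IgGK and 4.58, 6.3 and 8.31 in LepK, log2 fold change -1.49, standard error 0.23, adjusted p = 0.001 from edgeR) were among them. *Tgfb1* had 39.8, 55.5 and 40.4 in IgGK and 25.5, 31.3 and 29.3 in LepK (log2 fold change -0.66, standard error 0.13, adjusted p = 0.00456 from edgeR), was not called without IgGK library 2 (-0.48, adjusted p = 0.0142), and had a value against library 3 of -0.48. The receptor gene *Tgfbr2* and the mediator *Smad3* were not called (log2 fold changes -0.39 and -0.17). Of 33 other growth factor genes 2 were called higher and 4 lower. The growth factor rises were 1 without IgGK library 2, 1 without LepK library 1, 0 against library 3 and 0 under scaling by library size alone. The falls were 2 without IgGK library 2, 0 against library 3 and 9 under scaling by library size alone. *Wnt4*, a signal of tubule and stroma, had 42.6, 52.6 and 39 in IgGK and 17.2, 31.4 and 27 in LepK (log2 fold change -0.83, standard error 0.20, adjusted p = 0.0107 from edgeR). *Dkk3*, a stress-induced secreted protein of tubule cells, fell by 0.79. *Fgf1* rose by 0.67. *Pdgfb* was not called (-0.36).

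Of 34 cell cycle genes 31 had values below 0, with a median of -0.42, and 5 were called lower and 1 higher. The count of falls was 0 without IgGK library 2, 1 without LepK library 1, 3 without LepK library 3, 0 against library 3 and 9 under scaling by library size alone. The count of rises was 0 without LepK library 1, 0 against library 3 and 0 under scaling by library size alone. *Top2a*, of dividing cells, had 13, 18.3 and 12.6 in IgGK and 7.8, 8.08 and 8.57 in LepK (log2 fold change -0.85, standard error 0.21, adjusted p = 0.0131 from edgeR), and was not called without IgGK library 2 (-0.65, adjusted p = 0.0716). *Mki67* had 18, 25.8 and 20.7 in IgGK and 8.86, 15.5 and 10.5 in LepK (log2 fold change -0.89, standard error 0.24, adjusted p = 0.0211 from edgeR), and was not called without IgGK library 2 or LepK library 1 or 3 (values -0.82 to -0.72, adjusted p = 0.0725 to 0.0912). *Cdk1* was not called (4.55, 6.54 and 4.13 in IgGK and 3.16, 4.79 and 3.8 in LepK, which overlap). The gene called higher was *Ccnd1*, cyclin D1 (46.8, 48.7 and 47.2 in IgGK and 76.8, 62.1 and 67.4 in LepK, log2 fold change 0.53, standard error 0.10, adjusted p = 0.00401 from edgeR), at 184 in WTK, which lost its call without LepK library 1 (0.45, adjusted p = 0.0152). Of 19 circadian genes 6 were called higher and none lower, a count that was 2 against library 3 and 2 under scaling by library size alone. *Per2*, a repressor of the clock, had 45.6, 45.5 and 51.2 in IgGK and 78.8, 63.7 and 76.4 in LepK (log2 fold change 0.62, standard error 0.09, adjusted p = 0.000638 from edgeR), and the output genes *Usp2* and *Hlf* rose by 0.76 and 0.77, while *Arntl*, the clock's activator, had 2.67, 4.09 and 2.4 in IgGK and 1.68, 1.31 and 2.18 in LepK and was not called (log2 fold change -0.83, adjusted p = 0.152 from edgeR). The time of day of collection is not given in the sources used here. None of 82 cytosolic ribosomal protein genes was called by edgeR or DESeq2, with a median of -0.15, and 24 had an unadjusted p under 0.05 in edgeR.

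**Figure D4:**
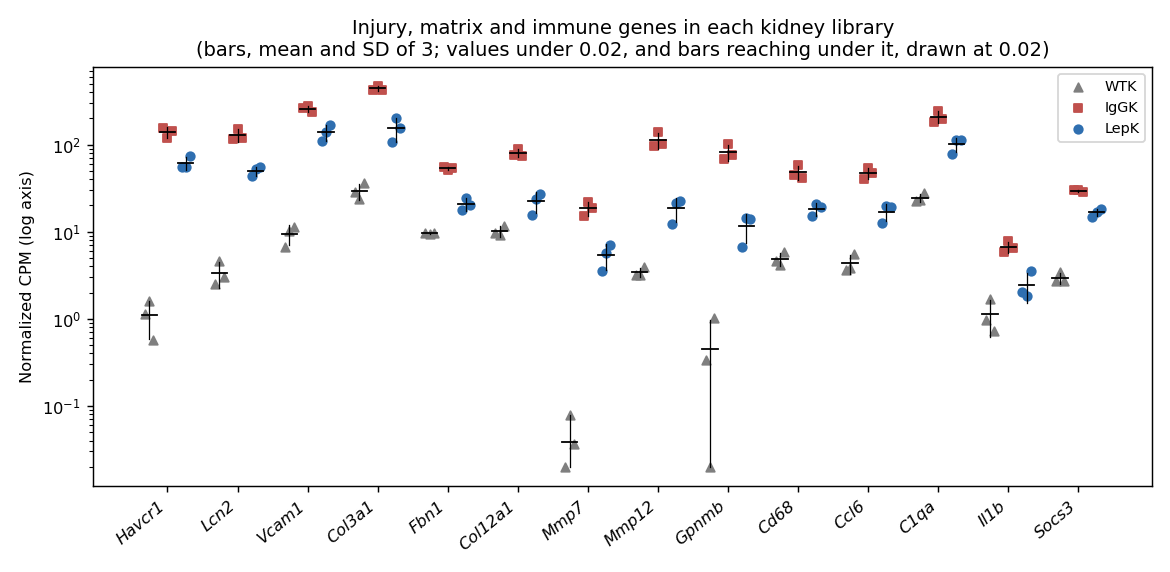
Normalized CPM (log axis) of 14 injury, matrix and immune genes in each kidney library, with WTK as triangles, IgGK as squares and LepK as circles, and bars at the mean and SD of 3 libraries. For each of the 14 genes the 3 LepK circles lie below the 3 IgGK squares and above the 3 WTK triangles. The 14 were picked among called genes, and genes that were not called, such as *Acta2* and *Tnf*, are not drawn.

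Among single genes, *Gm49980*, annotated with no known function, rose most, from 1.25, 2.09 and 2.28 in IgGK to 27.3, 13.2 and 19.5 in LepK (log2 fold change 3.40, standard error 0.26, adjusted p = 5.62e-05 from edgeR), with 42.4 in WTK. *Hrg*, a histidine-rich plasma glycoprotein, had 0.594, 0.886 and 0.867 in IgGK and 4.84, 9.25 and 1.7 in LepK (log2 fold change 2.74, standard error 0.49, adjusted p = 0.00235 from edgeR). *Neurog2*, a neuronal factor, had 0.363, 0.0857 and 1.07 in IgGK and 3.16, 2.38 and 3.21 in LepK (log2 fold change 2.51, standard error 0.50, adjusted p = 0.00441 from edgeR), both at few reads. *Gm43305* was the most abundant of the 12 largest rises, with 76.8, 64.8 and 47.4 in IgGK and 361, 226 and 271 in LepK (log2 fold change 2.18, standard error 0.19, adjusted p = 6.42e-05 from edgeR). *Mhrt* lies across *Myh7*, on the other strand, and its reads cannot be told apart from those of *Myh7* (0, 1.77 and 0.549 in IgGK and 3.62, 5.06 and 3.43 in LepK, log2 fold change 2.35, standard error 0.67, adjusted p = 0.0275 from edgeR), and it was not called without IgGK library 3 (2.16, adjusted p = 0.091) and without LepK library 2 (2.16, adjusted p = 0.0523). The others of the 12 were *Cyp2d12*, *Cyp4a12a*, *Chil3*, *Gm5524*, *Tenm2*, *Rhox6* and the unnamed ENSMUSG00000119988.

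Since the 12 largest falls were led by adrenal transcripts, the genes that fell most against IgGK library 3 alone, among those also called in the fit of all libraries, were taken as well, a choice made after their values were seen. Beside *Hsd3b1*, *Cyp21a1*, *Cyp11a1* and *Prss35* of the adrenal pattern, *Gpnmb*, *Mmp12*, *Mmp7* and *Col12a1*, they were *Zbed6*, *Mamdc2*, *Cadm3* and *Cpxm2*. *Zbed6*, a transposon-derived repressor of *Igf2* whose gene lies within *Zc3h11a*, had 15.8, 14.5 and 17.5 in IgGK and 4.44, 3.12 and 2.95 in LepK (log2 fold change -2.18, standard error 0.19, adjusted p = 6.42e-05 from edgeR), with a value against library 3 of -2.30. *Mamdc2*, a proteoglycan, had 4.72, 7.34 and 5.64 in IgGK and 0.889, 1.34 and 1.74 in LepK (log2 fold change -2.16, standard error 0.29, adjusted p = 0.000552 from edgeR). *Cpxm2*, a carboxypeptidase-like protein that lies over part of *Fgfr2*, had 15.1, 19.2 and 21.7 in IgGK and 6.02, 6.2 and 4.5 in LepK (log2 fold change -1.74, standard error 0.36, adjusted p = 0.00503 from edgeR). No overlap of IgGK and LepK was a condition of this choice, so its presence in these 4 genes adds nothing. Library 3 was the lowest IgGK library for none of the 4, and ranking by the fall against library 3 favors such genes.

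Levels of different genes can be compared per gene length, in FPKM (fragments per kilobase and scaled to library depth, as deposited). *Kap*, an androgen-responsive proximal tubule protein, had the highest mean FPKM among the called genes, with 13483 in IgGK, 24540 in LepK and 38734 in WTK, above *Gpx3* at 4973, 8169.6 and 11799. *S100g*, also called higher, had 1032 in LepK, above both 533.6 in IgGK and 761.5 in WTK. Among genes called lower, *Spp1*, osteopontin, led with 2793 FPKM in IgGK and 1428 in LepK against 175 in WTK, followed by *Cd74* with 729 and 438 and *Lyz2*, the lysozyme of macrophages, with 680.4 and 251.

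**Figure D5:**
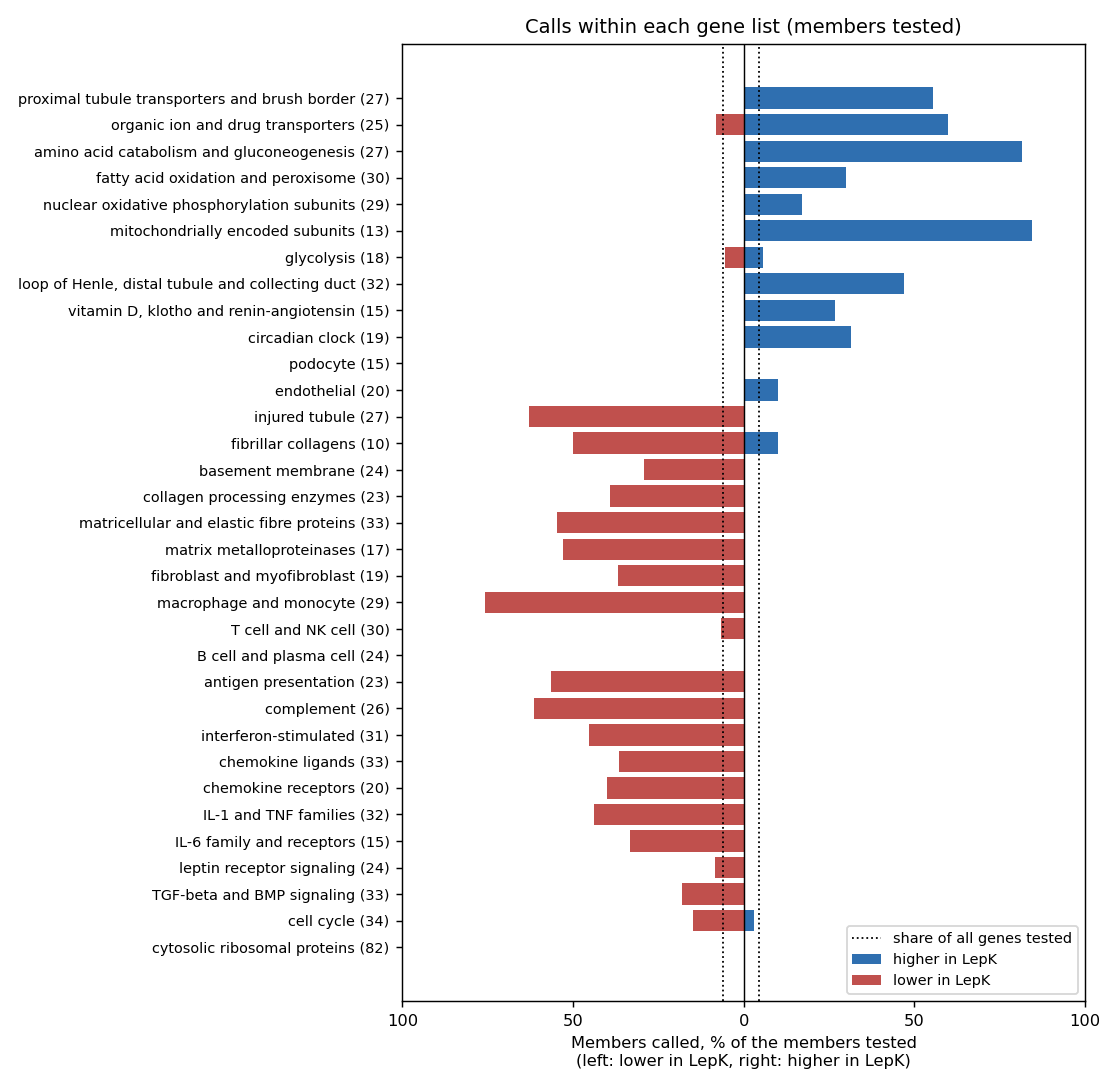
Share of the members tested (in %) that were called higher (right) or lower (left) in LepK against IgGK, for 33 lists of genes with the number tested in parentheses. Dotted lines mark the share of all genes tested, 4.38% higher and 5.99% lower, the injured tubule and macrophage bars lie to the left alone, and organic ion and drug transporters, glycolysis, fibrillar collagens and cell cycle have bars on both sides.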

How the data were processed

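Poly(A) RNA of whole mouse kidney was sequenced as non-directional libraries, so reads of overlapping genes on opposite strands cannot be told apart. The authors deposited raw counts per gene and FPKM values in 1 table, and the FPKM of a library are its counts per kilobase times 1 factor. The submitters' processing notes name GRCm39 (mm39), DESeq and DESeq2 with no role, and the aligner and counter are not given in the sources used here. The table also lists the authors' own comparisons (fold changes and p-values), which were not used. FPKM served only to compare levels between genes.

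Counts of the 9 kidney libraries were fitted with edgeR 4.0.16 (R 4.3.3, limma 3.58.1) by the quasi-likelihood test with TMM scaling, after filterByExpr (minimum count 10, minimum total 15), with the 3 groups as the only term. Of 56748 genes listed, 19593 were tested. P-values are two-sided, adjusted by Benjamini-Hochberg over all genes tested, and genes were called at an adjusted p under 0.05 and an absolute log2 fold change over 0.5. The standard error is the absolute log2 fold change divided by the square root of F. The study gives 3 samples from mice per group, and p-values measure the spread between these libraries. The fit was tested on simulated data.

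The gene groups and lists were chosen with earlier results of these data known, and members called are counted beside the share of all genes. The genes named are the 12 called genes with the largest rise and the 12 with the largest fall (a mean of at least 1 normalized CPM and no overlap of the groups), members fixed for each list, the 4 called members of a list with the smallest adjusted p, and called members at the ends of a list. Further genes, mostly members that were not called, were chosen after their values were seen. Alternatives were other scalings, DESeq2 1.42.0, other filters and thresholds, the 6 libraries alone, a replicate block and each library left out. The comparison with IgGK library 3 as the only IgGK library was added after the data were seen, and that library was assumed to vary like the other groups. Promoters are from RefSeq on GRCm38.p6, matched by symbol, and gene positions are those of the deposited table. A line in the sample descriptions that names a table column disagrees with the titles, and the titles were used. Some genes are not reported here.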

Additional observations from a re-analysis of the deposited data

How the results depend on the processing

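The counts of 858 genes higher and 1174 lower in LepK became 408 higher and 2185 lower under scaling by library size alone, 95 higher and 137 lower in a test against a log2 fold change of 0.5, 175 higher and 428 lower where the log2 difference had to exceed 1 and 2150 higher and 1875 lower with no fold threshold. With IgGK library 3 as the only IgGK library they were 429 higher and 235 lower, and with 1 library left out they ranged from 594 to 992 higher and from 695 to 1271 lower, the lowest without LepK library 1 (594 higher, 709 lower) and IgGK library 2 (627 and 695). DESeq2, RLE or upper-quartile factors, a filter at 1 CPM or none, and a fit of the 6 libraries alone kept both counts within 1.5 times. With the replicate number as a block the counts were 882 and 1237. Deviations of same-numbered IgGK and LepK libraries from their group means correlated at 0.182, 0.165 and -0.035. The value was -0.19 for IgGK library 1 with LepK library 2 and -0.186 for IgGK library 2 with LepK library 1. Deviations from a mean of 3 libraries are tied to each other, so these values cannot decide whether same-numbered libraries were paired. The cause of the changes in the counts was not tested. A limit on genes under about 1 normalized CPM is the number of reads, since 1 read is at least 0.0319 CPM. Among genes that were not called, the sign of the log2 fold change turned for *Igkc* (-0.13) and *Col4a3* (-0.04) under scaling by library size alone, and for *Igkc* (-0.08) and *Cd8a* (0.12) with IgGK library 3 as the only IgGK library. With 1 library left out the range was -0.2 to 0.3 for *Igkc*, -0.29 to 0.28 for *Cd8a*, -0.73 to 0.09 for *Cd3e* and -0.16 to 0.07 for *Ccn2*.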
